A study of Homo sapiens with 10 samples.

Results

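The genes described here build fatty acids and store them. They are the regulator SREBF1, the synthesis enzymes ACLY, ACACA and FASN, the desaturases SCD and FADS1, the elongase ELOVL6, the triglyceride enzymes DGAT1 and DGAT2, and the fatty acid carrier FABP5. The 10 members form a list of named genes. Every probe set annotated with the symbol of 1 member alone was read on all arrays, which gave 20 probe sets for 9 of the 10 members, out of 54675 probe sets and 19775 genes with such a probe set on the array. FADS1 was not measured, because its 3 probe sets also carry the symbol of a microRNA gene. The samples were SKBR3 cells, an established breast carcinoma line with an amplified HER2 gene, and all of them, controls included, express mutant p53. They had received siRNA against p53 (p53i) or, as the negative control, against bacterial LacZ (LacZi). Each siRNA had 2 untreated arrays and 1 array after each of 8, 20 and 50 h with 100 nM calcitriol (D3), the active hormone made from vitamin D, which makes 10 arrays in 8 groups. The medium held serum stripped with charcoal, a step that removes lipophilic hormones. The comparisons address what depletion of mutant p53 does to these transcripts, what D3 does to them, and whether the D3 response depends on the siRNA. All of this rests on 1 cell line.

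Cells make fatty acids from citrate: ACLY splits it to acetyl-CoA, ACACA carboxylates this to malonyl-CoA, and FASN joins the units to palmitate. ELOVL6 lengthens the product, SCD puts in the first double bond, and DGAT1 and DGAT2 attach a last acyl chain to diacylglycerol to form triglyceride, while FABP5 carries fatty acids through the cytosol. SREBF1 encodes SREBP-1, the membrane-bound transcription factor that switches on most of these genes once SCAP has escorted it to the Golgi for cleavage. High FASN and ACACA levels are a known trait of HER2-amplified breast cancer cells.

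Promoter sequence of 3 members is shown because SREBF1 and ELOVL6 carry calls described below and SCD, a neighbour in the pathway, carries none. Each is the 250 bases before 1 transcript start that RefSeq lists for the gene on GRCh38.p14, 5′ to 3′ on the strand of the gene. Capitals mark, on either strand, the GC box GGGCGG, the CCAAT box, and the nuclear receptor half-site AGGTCA. SREBF1 is read from chr17:17836987-17837236 on the minus strand, SCD from chr10:100346983-100347232 on the plus strand, and ELOVL6 from chr4:110198616-110198865 on the minus strand. The ELOVL6 window lies inside the annotated gene, which runs up to position 110199202 and so has an outer start farther upstream.
SREBF1: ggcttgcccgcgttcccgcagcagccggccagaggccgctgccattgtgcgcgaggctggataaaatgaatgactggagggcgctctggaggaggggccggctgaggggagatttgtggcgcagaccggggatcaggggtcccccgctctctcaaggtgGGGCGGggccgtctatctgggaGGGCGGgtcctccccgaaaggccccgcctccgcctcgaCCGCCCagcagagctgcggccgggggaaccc
SCD: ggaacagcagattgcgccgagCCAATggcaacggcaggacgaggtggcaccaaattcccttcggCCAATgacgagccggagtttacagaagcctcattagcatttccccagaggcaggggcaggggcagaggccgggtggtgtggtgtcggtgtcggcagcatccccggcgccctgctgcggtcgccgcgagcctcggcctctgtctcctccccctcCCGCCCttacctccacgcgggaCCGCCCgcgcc
ELOVL6: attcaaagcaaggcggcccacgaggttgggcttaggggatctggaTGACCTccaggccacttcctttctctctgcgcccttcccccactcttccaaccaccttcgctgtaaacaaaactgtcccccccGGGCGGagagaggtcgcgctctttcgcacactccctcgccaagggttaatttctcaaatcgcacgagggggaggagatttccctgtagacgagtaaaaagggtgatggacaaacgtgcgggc

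SREBF1 held 3 GC boxes, which start 91, 69 and 31 bases before the transcript start, and neither of the other marked motifs. SCD held CCAAT boxes at 229 and 186 bases and GC boxes at 33 and 11 bases. ELOVL6 held 1 half-site at 205 bases and 1 GC box at 122 bases before the transcript start used. No marked motif overlapped another in these windows. Among the 6 members with a sequence read, which also include ACACA, ACLY and FADS1, a GC box stood in 6, against 42.6% of 35116 promoters of the same length. A CCAAT box stood in 2 of the 6, against 32% of promoters, and the half-site in 1, against 12.1%. The letters of a sterol response element core, TCACNCCAC (0.883% of promoters), and of the E-box CACGTG (6.34%) were in none of the 6 windows. These matches describe the letters alone. The ACLY window, like that of ELOVL6, lies inside the annotated gene. ACLY and ACACA have 2 and 3 promoter entries, of which 1 each was read.

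Values are MAS5 signals, an array's averaged brightness per probe set on a linear scale, and differences are on the scale log2(signal + 16) with their standard error (SE). A gene was represented by its brightest probe set. It was called higher or lower where limma's adjusted p, over all 12022 genes with a mean signal above 35.4, was under 0.05. The 9 measured members were all among those genes. Median signals were 35.7 to 44.3 per array. The samples had the markers of their label: 6 of 7 SKBR3 and luminal markers were above the filter (CDH1 was not), with summed signals of 76213 to 99715 on p53i arrays and 67101 to 74313 on LacZi arrays. Of these 7 markers KRT8 and GRB7 rose in p53i cells, and their part in the members' differences was not tested. Of the adipocyte markers 1 of 6 was above it, of the hepatocyte markers 1 of 5, of the fibroblast markers 1 of 5, of the endothelial markers 1 of 4 and of the leukocyte markers 0 of 4. CYP24A1, the calcitriol-degrading enzyme and standard D3 target, had signals of 4234 to 6476 on the D3 arrays and 23.7 to 40.0 on the untreated arrays. The transcript that the p53 siRNA targets was not analysed here, which leaves the depletion itself unmeasured. The ACTB 3'/5' ratio compares control probe sets at both ends of the actin transcript and grows as RNA is shortened. It was 6.22 ± 1.77 (SD) on the 5 p53i arrays and 4.46 ± 0.523 (SD) on the 5 LacZi arrays, with a two-sided p = 0.0714 by an exact permutation test. It was highest on p53i untreated replicate 2 (8.72) and p53i 20 h (7.11), the 2 high-ratio arrays. The same ratio for GAPDH was 1.29 ± 0.103 (SD) on p53i arrays and 1.18 ± 0.068 (SD) on LacZi arrays. Its two-sided p was 0.119 by the exact permutation test.

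In p53i cells 3 of the 9 measured members fell and 0 rose, over all conditions. They were the carrier FABP5, the triglyceride enzyme DGAT2 and the elongase ELOVL6. Among all 12022 genes 3.11% fell and 6.5% moved in either direction. The p53i and LacZi arrays did not overlap for the same 3 members, p53i being lower, which held for 3.3% of all genes. The 6 other members differed by 0.01 to 0.27 on the log2 scale, with limma adjusted p of 0.106 to 0.968. The median difference of the 9 members was 0.04, against -0.00 for all genes. Over all genes 407 rose and 374 fell, so that 52.1% of calls were higher, and with each array centred on its median 375 rose and 142 fell, or 72.5% higher. The same 3 members were called under that centring.

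**Figure D1:**
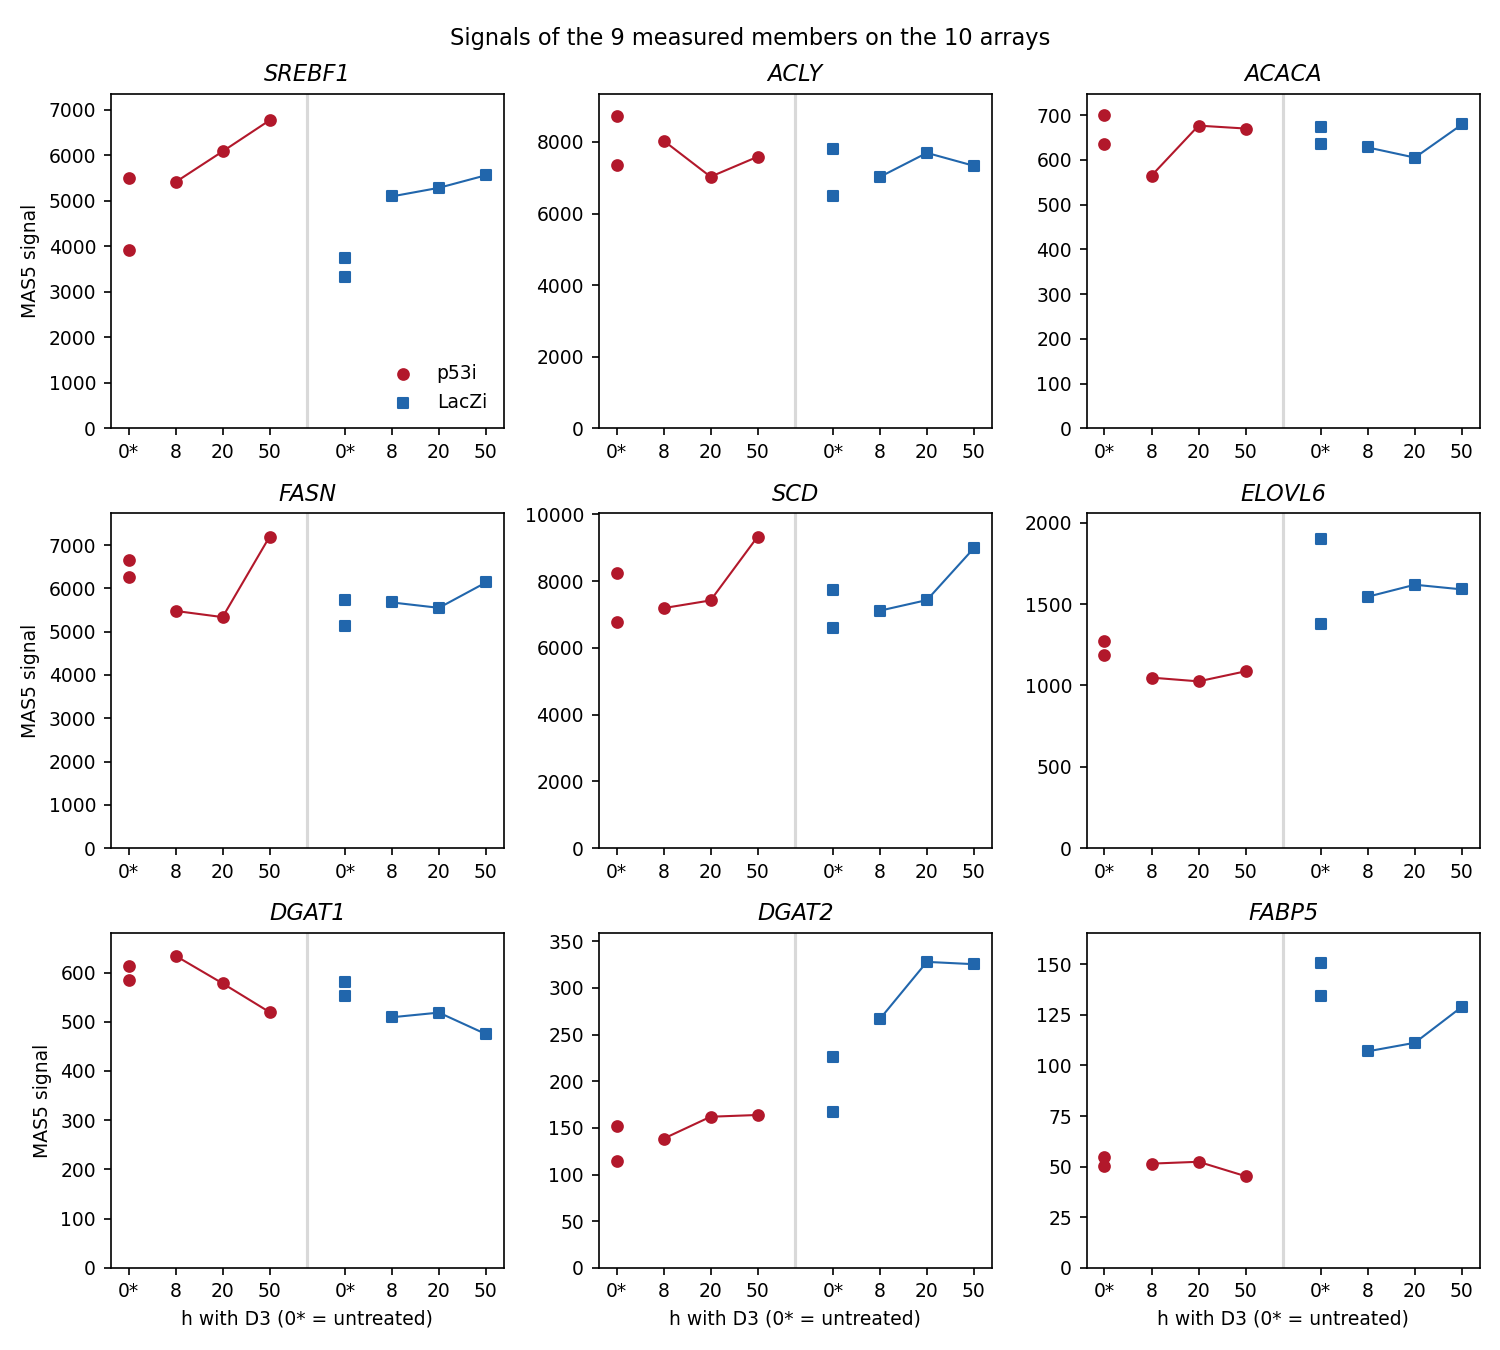
MAS5 signal (linear axis from 0) of the brightest probe set of each measured member on every array, by h with D3 (0* marks the untreated arrays), p53i arrays as circles and LacZi arrays as squares; lines join single arrays. FABP5, DGAT2 and ELOVL6 are lower on all 5 p53i arrays than on any LacZi array, and SREBF1 is highest at 50 h within each siRNA.

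FABP5, which delivers fatty acids to enzymes and nuclear receptors, had the largest difference of the members. Its signals on the p53i arrays were 54.6 and 50.4 untreated and 51.5, 52.4 and 45.3 at 8, 20 and 50 h. On the LacZi arrays they were 151 and 134 untreated and 107, 111 and 129 at 8, 20 and 50 h. Every p53i value was thus under every LacZi value, and the p53i values lay close together, not far above the array medians. The difference was -1.08 ± 0.16 (limma adjusted p = 0.00356). The 4 comparisons matched on D3 time ran from -1.24 at 50 h to -0.87 at 8 h. In untreated cells alone it was -1.21 ± 0.28 (limma adjusted p = 0.281), where only the 2 untreated pairs give the spread. Without an offset the difference stood at -1.31, and with an offset of 64 at -0.73, both called. FABP5 rests on 1 probe set, and the gene has near-identical pseudogene copies in the genome, so the source of the signal is uncertain.

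DGAT2, the acyltransferase that makes triglyceride at the lipid droplet, had signals of 152 and 114 on the untreated p53i arrays and 138, 162 and 164 at 8, 20 and 50 h. The LacZi arrays had 167 and 226 untreated and 267, 328 and 325 at 8, 20 and 50 h. The groups did not overlap, although the highest p53i array (164) and the lowest LacZi array (167) were close. The difference was -0.75 ± 0.14 (limma adjusted p = 0.0112). The other probe set of DGAT2 differed by -0.50 ± 0.22 (limma adjusted p = 0.221 over all probe sets). It was lower in p53i cells in 4 of 4 matched comparisons, with differences from -1.19 at 8 h to -0.18 at 50 h.

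ELOVL6, which lengthens palmitate to stearate, had signals of 1270 and 1184 on the untreated p53i arrays and 1048, 1025 and 1087 at 8, 20 and 50 h. The LacZi arrays had 1898 and 1376 untreated and 1545, 1619 and 1590 at 8, 20 and 50 h. The lowest LacZi array, untreated replicate 2, lay above the highest p53i array. The difference was -0.51 ± 0.09 (limma adjusted p = 0.0112). Another probe set differed by -0.48 ± 0.14 (limma adjusted p = 0.0722 over all probe sets) and was lower in 4 of 4 matched comparisons. The remaining one differed by -0.23 ± 0.16 (limma adjusted p = 0.464) and was higher in p53i cells by 0.04 at 8 h.

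**Figure D2:**
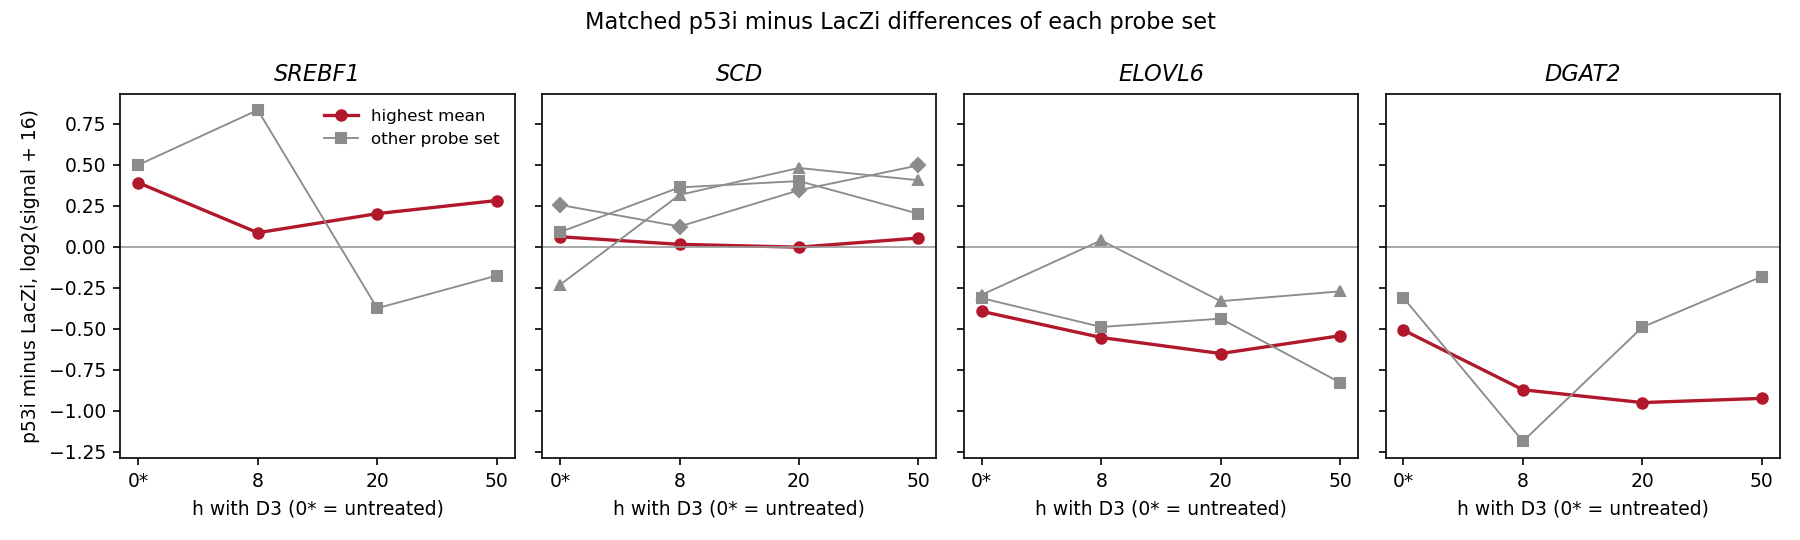
Difference p53i minus LacZi in log2(signal + 16), matched on h with D3 (0* is the mean of the untreated arrays), for every probe set above the signal filter of SREBF1, SCD, ELOVL6 and DGAT2; the red line is the brightest probe set. Both DGAT2 probe sets stay below 0 at each time, and of the 3 ELOVL6 probe sets 1 is above 0, by 0.04 at 8 h.

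The ACTB ratio was higher on average on the p53i arrays, but the groups overlapped and the permutation test did not pass. Its part in these 3 differences was examined by fits with and without it. With the ratio as a covariate the differences were -1.02 for FABP5 (limma adjusted p = 0.0596), -0.67 for DGAT2 (0.118) and -0.51 for ELOVL6 (0.083), so that 0 of the 9 members were called. Without the 2 high-ratio arrays they were -1.10, -0.67 and -0.47, and FABP5 alone was called (limma adjusted p = 0.0351). With any 1 of the 10 arrays left out, FABP5 was called in 10 of 10 fits. ELOVL6 lost its call without the p53i or the LacZi 20 h array, and DGAT2 without either of these or LacZi 50 h. In bulk RNA, fewer cells with a transcript and less transcript per cell cannot be told apart.

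The enzymes of the synthesis core showed no difference that passed the test in p53i cells. ACLY, ACACA, FASN and SCD differed by 0.01 to 0.12, and their 95% intervals ran from -0.17 to 0.28. FASN, the synthase itself, had signals of 6255, 6645, 5480, 5337 and 7196 on the p53i arrays (2 untreated, then 8, 20 and 50 h), against 5736, 5143, 5676, 5551 and 6137 on the LacZi arrays. The ranges overlap. SCD had 6768, 8235, 7193, 7425 and 9333 on the p53i arrays, against 6602, 7751, 7117, 7435 and 8991 on the LacZi arrays, so matched arrays of this brightest probe set differed by -0.00 to 0.06. Of the dimmer SCD probe sets 2 were higher in p53i cells in 4 of 4 matched comparisons, by 0.09 to 0.40 and by 0.12 to 0.50. ACLY averaged 7745 ± 654 on p53i arrays and 7272 ± 532 on LacZi arrays (SD, n = 5 each). ACACA averaged 649 ± 52.5 on p53i arrays and 644 ± 31.3 on LacZi arrays (SD, n = 5 each). The 3 probe sets of ACLY pointed in different directions, from -0.21 to 0.09, and none was called. DGAT1, the other triglyceride enzyme, differed by 0.15 ± 0.08 (limma adjusted p = 0.318), with signals of 519 to 634 on p53i arrays and 475 to 580 on LacZi arrays.

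SREBF1, the regulator, averaged 5537 ± 1057 on p53i arrays and 4606 ± 998 on LacZi arrays (SD, n = 5 each). It was higher in p53i cells in 4 of 4 matched comparisons, by 0.09 to 0.39, and the difference of 0.27 ± 0.09 did not pass (limma adjusted p = 0.106). Its dimmer probe set differed by 0.26 ± 0.20 (limma adjusted p = 0.503 over all probe sets). That probe set was higher in 2 of 4 matched comparisons, with differences from -0.37 to 0.83. Over the alternative settings described below, the difference of SREBF1 ran from 0.08 to 0.33. In untreated cells 0 of the 9 members were called, where 0.00832% of all genes were. At an unadjusted p under 0.05 limma gave 1 member, FABP5, and 1377 genes (11.5%).

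**Figure D3:**
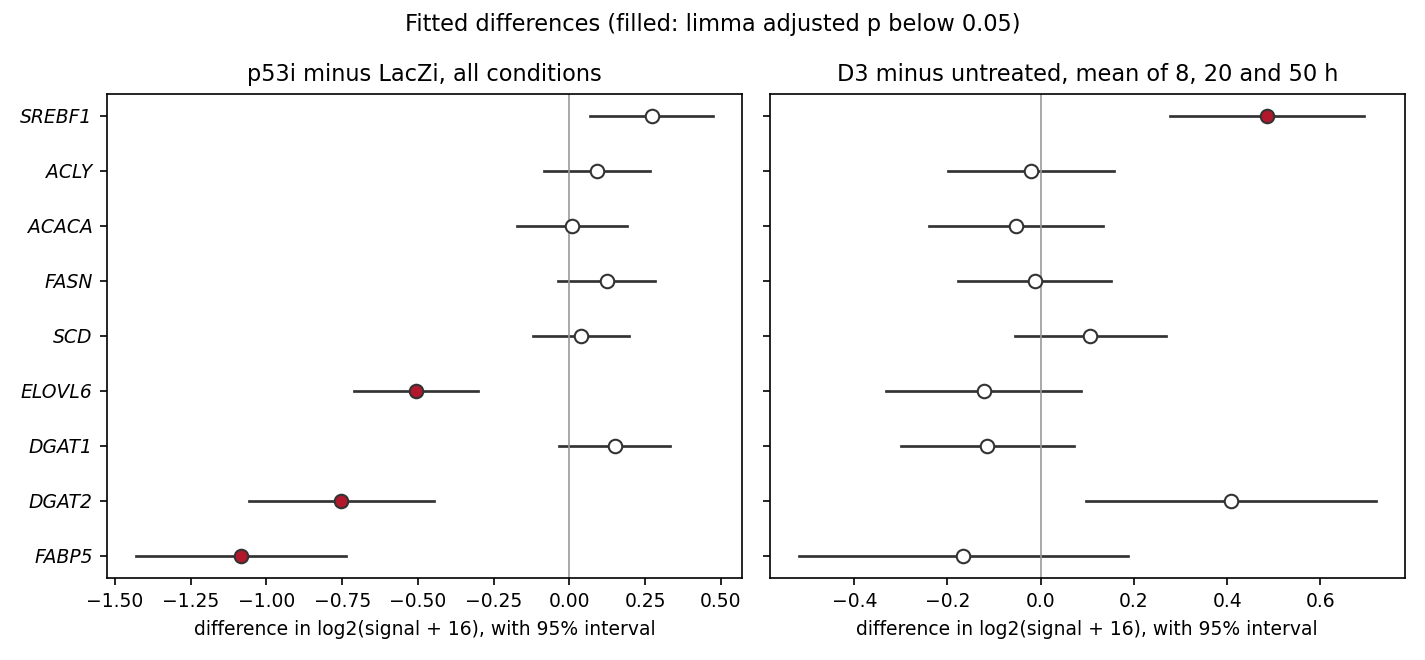
Fitted differences in log2(signal + 16) with 95% intervals for the 9 measured members, p53i minus LacZi over all conditions on the left and D3 minus untreated, averaged over 8, 20 and 50 h, on the right; filled points passed limma's adjusted p of 0.05. The 3 filled points on the left lie at -0.51 or below, and SREBF1 at 0.49 is the filled point on the right.

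With D3, averaged over its 3 times, 1 of the 9 members rose and 0 fell, and for 0 of them were the D3 and untreated arrays free of overlap, which held for 4.35% of all genes. The member that rose was SREBF1, by 0.49 ± 0.10 (limma adjusted p = 0.0182), where 1.99% of all genes rose and 4.4% moved in either direction. Over all genes 239 rose and 290 fell, and with each array centred on its median 142 rose and 529 fell. SREBF1 stood at 0.40 with that centring and kept its call. No untreated array is labelled as harvested alongside the later D3 arrays. In every D3 difference the hormone and the longer culture therefore cannot be told apart.

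SREBF1 had signals of 3916 and 5497 on the untreated p53i arrays and 5414, 6088 and 6772 at 8, 20 and 50 h. The LacZi arrays had 3328 and 3753 untreated and 5099, 5288 and 5564 at 8, 20 and 50 h. All 6 D3 arrays lay above the untreated mean of their own siRNA. In p53i cells untreated replicate 2, the array with the highest ACTB ratio, lay above the 8 h array. The difference was 0.37 ± 0.13 after 8 h of D3, 0.48 ± 0.13 after 20 h and 0.60 ± 0.13 after 50 h. Only the last passed (limma adjusted p = 0.524 at 8 h, 0.119 at 20 h and 0.0239 at 50 h). Among all genes those that rose made up 0.141%, 0.358% and 1.83% in the same order. The change between 8 and 50 h, 0.22 ± 0.15, was not called (limma adjusted p = 0.687). The dimmer probe set of SREBF1 differed by 0.17 ± 0.20 (limma adjusted p = 0.727 over all probe sets) and was above its own untreated mean on 3 of 6 D3 arrays. The mean of both probe sets stood at 0.33 (limma adjusted p = 0.154).

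The rise of SREBF1 stood at 0.43 with the ACTB ratio as a covariate (limma adjusted p = 0.00607) and at 0.60 without the 2 high-ratio arrays (0.00814). It lost its call in 5 of 10 fits with 1 array left out, namely LacZi untreated replicate 1, LacZi 8 h, LacZi 20 h, p53i 20 h and p53i 50 h, and at 50 h in 3 of 10 (LacZi untreated replicate 1 and either 50 h array).

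The enzymes downstream did not pass with D3. ACLY, ACACA, FASN and SCD differed by -0.05 to 0.11 over the 3 times, with 95% intervals from -0.24 to 0.27. At 50 h SCD, the desaturase that makes oleate, differed by 0.33 ± 0.10 (limma adjusted p = 0.0889). Its signals of 9333 in p53i cells and 8991 in LacZi cells were the highest 2 of the 10 arrays. All 4 SCD probe sets were above 0 at 50 h, by 0.33 to 0.60, and none of them was called. With quantile normalization the brightest one was called at 50 h, at 0.31 (limma adjusted p = 0.0485). The dimmer SCD probe sets were low on untreated replicate 1 of both siRNAs. One had 295 there and 636 on replicate 2 in p53i cells, and 392 and 670 in LacZi cells. Between 8 and 50 h SCD differed by 0.36 ± 0.12 (limma adjusted p = 0.371) and FASN by 0.25 ± 0.12 (0.522).

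DGAT2 differed by 0.41 ± 0.14 with D3 (limma adjusted p = 0.133). It averaged 307 ± 34.6 on the LacZi D3 arrays (SD, n = 3), against 167 and 226 on the untreated LacZi arrays. In p53i cells it averaged 155 ± 14.2 with D3 (SD, n = 3), against 152 and 114 untreated. The D3 difference was 0.20 in p53i cells and 0.61 in LacZi cells, and the interaction of -0.41 ± 0.27 did not pass (limma adjusted p = 0.917). ELOVL6 (-0.12 ± 0.10), FABP5 (-0.17 ± 0.16) and DGAT1 (-0.11 ± 0.09) did not pass with D3, and their limma adjusted p was 0.515 to 0.64.

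The interaction, which asks whether the D3 response depends on the siRNA, was called by limma for 0 of the 9 members and for 0 of all genes (percent called 0). At an unadjusted p under 0.05 it gave 0 members and 645 genes (5.37%). The members' interactions ran from -0.41 for DGAT2 to 0.21 for FABP5, with 95% intervals from -1.01 to 0.94, which leaves room for sizeable differences in either direction. Within one siRNA, 0 of the 9 members were called for D3 in p53i cells, where 0.541% of all genes were, and 0 in LacZi cells, where 0.391% were. SREBF1 differed by 0.39 ± 0.13 in p53i cells and 0.59 ± 0.13 in LacZi cells (limma adjusted p = 0.201 and 0.11).

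The other genes of lipid metabolism were read from 8 pathway lists and from 1 list of FABP5 relatives. Among the regulators of lipogenic transcription 1 of 16 tested rose in p53i cells, where 3.39% of all genes rose. It was MBTPS1, the Golgi protease that makes the first cut in SREBP, by 0.40 ± 0.09 (limma adjusted p = 0.0233), with signals of 449 to 572 on p53i arrays and 338 to 410 on LacZi arrays. SREBF2, the sterol-responsive relative of SREBF1, chosen after its values were seen, differed by 0.53 ± 0.15 (limma adjusted p = 0.0538) and was higher in 4 of 4 matched comparisons. SCAP differed by 0.27 ± 0.12 (limma adjusted p = 0.221) and INSIG1, which retains SCAP in the endoplasmic reticulum, by 0.21 ± 0.14 (0.396). Of the sterol-regulated SREBP targets 0 of 6 tested were called in p53i cells. All 6 differences were above 0, as for 49.1% of all genes, with a median of 0.29, against -0.00 for all genes. Several of these targets were high on p53i untreated replicate 2, the array with the highest ACTB ratio. FDPS, of the mevalonate pathway, had 2997 there and 1753 on replicate 1, and LSS, which closes the sterol ring, had 1857 and 955. These were picked as examples, and STARD4, of the same 6, went the other way, with 319 and 340. SREBF2 had 422 and 236. With the ACTB ratio as a covariate, a check chosen after seeing the data, 5 of the 6 were above 0, with a median of 0.03, and SREBF2 stood at 0.24 (limma adjusted p = 0.498). Without the 2 high-ratio arrays the median was 0.08 and SREBF2 stood at 0.32 (0.27).

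The next 5 lists each held 1 call in p53i cells among 9 to 13 tested genes, where 3.39% of all genes rose and 3.11% fell. In the supply of acetyl-CoA and NADPH 1 of 9 tested fell in p53i cells. It was PGD, an NADPH-producing enzyme of the pentose phosphate pathway, with a difference of -0.31 ± 0.08 (limma adjusted p = 0.0418). In elongation and desaturation 1 of 10 rose, TECR, which completes the elongation cycle, by 0.32 ± 0.07 (0.03). In activation and uptake 1 of 11 rose, SLC27A1, a fatty acid transport protein, by 0.65 ± 0.18 (0.0483). In glycerolipid assembly 1 of 11 fell, LPIN2, a phosphatidate phosphatase, with a difference of -0.46 ± 0.10 (0.0245), and LPIN1 stood at 0.15 ± 0.09 (0.384). In lipid droplet storage and lipolysis 1 of 13 fell, MGLL, which releases the last fatty acid of a glyceride, with a difference of -0.45 ± 0.09 (0.0145). PLIN2, the droplet coat protein, stood at -0.32 ± 0.20 (0.381). With 1 array left out, MBTPS1 lost its call in 8 of 10 fits, PGD in 9, TECR in 7, SLC27A1 in 10, LPIN2 in 7 and MGLL in 4. All 6 lost their call with the ACTB ratio as a covariate and without the 2 high-ratio arrays. With each array centred on its median, PGD (limma adjusted p = 0.121) and LPIN2 (0.0636) lost theirs. With the mean of probe sets LPIN2 stood at -0.16 (limma adjusted p = 0.404), MBTPS1 at 0.26 (0.101) and TECR at 0.24 (0.186).

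Fatty acid oxidation, the mitochondrial route that breaks fatty acids down, held the most calls of any pathway list with D3. Of 16 tested genes 6 fell and 1 rose with D3 over the 3 times, where 2.41% of all genes fell and 1.99% rose. Of the 16 differences 12 were below 0, and their median was -0.34, against -0.00 for all genes. At 50 h 4 fell, where 2.48% of all genes fell, with a median of -0.38. For p53i against LacZi over all conditions 0 of the 16 were called. The list did not move as a whole with D3. ACADM and ACADVL, 2 acyl-CoA dehydrogenases, were each above their own untreated mean on 6 of 6 D3 arrays, without a call.

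ECI2, an isomerase needed for unsaturated fatty acids, had signals of 619 and 621 on the untreated p53i arrays and 473, 381 and 296 at 8, 20 and 50 h. The LacZi arrays had 579 and 567 untreated and 435, 339 and 242 at 8, 20 and 50 h. The D3 arrays all lay below the untreated ones, as for 2.47% of all genes, and within each siRNA the later array was always the lower. The difference was -0.73 ± 0.09 over the 3 times (limma adjusted p = 0.00108) and -1.11 ± 0.12 at 50 h (0.00059), and both held in 10 of 10 fits with 1 array left out. At 20 h ECI2 (-0.70 ± 0.12, limma adjusted p = 0.0207) and ETFA (-0.52 ± 0.10, 0.0434) had also fallen, where 0.233% of all genes fell. Within one siRNA ECI2 fell in p53i cells (-0.70 ± 0.13, limma adjusted p = 0.0415), where 0.15% of all genes fell, and in LacZi cells (-0.77 ± 0.13, 0.0324), where 0.0499% fell. With 1 array left out, these 20 h calls were lost in 3 of 10 fits for ECI2 and 9 for ETFA, and the calls of ECI2 within p53i and LacZi cells in 9 and 8. Without the 2 high-ratio arrays both 20 h calls and the p53i call were lost.

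HADH, which oxidises short-chain hydroxyacyl-CoA, had 1160 and 900 on the untreated p53i arrays and 887, 705 and 453 at 8, 20 and 50 h, and 1076, 867, 806, 678 and 562 on the LacZi arrays in the same order. Its difference was -0.57 ± 0.11 (limma adjusted p = 0.0158) and -0.96 ± 0.14 at 50 h (0.00492). ETFA, a subunit of the flavoprotein that takes the electrons of oxidation, had signals of 2329 to 3225 on D3 arrays and 3242 to 4144 on untreated arrays, with no overlap. Its difference was -0.49 ± 0.07 (limma adjusted p = 0.00497), called in 10 of 10 fits with 1 array left out. That call was lost without the intensity trend (limma adjusted p = 0.0576) and with 8 group means. ETFDH, which passes those electrons on, differed by -0.65 ± 0.16 (0.0371). HADHA and HADHB, the subunits of the trifunctional protein, differed by -0.38 each (0.0473 and 0.0415), and the nuclear receptor PPARD by 0.37 ± 0.08 (0.029). HADHA, HADHB and PPARD were chosen after their values were seen. With 1 array left out, ETFDH and PPARD lost their call in 8 of 10 fits, HADHA and HADHB in 9 and HADH in 5. With the mean of probe sets HADHA stood at -0.17 (limma adjusted p = 0.356), and without the 2 high-ratio arrays HADHB and PPARD lost their call. PPARD also lost its call with each array centred on its median (limma adjusted p = 0.152). CPT1A, which admits fatty acids to mitochondria, stood at -0.08 ± 0.09 (limma adjusted p = 0.683).

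**Figure D4:**
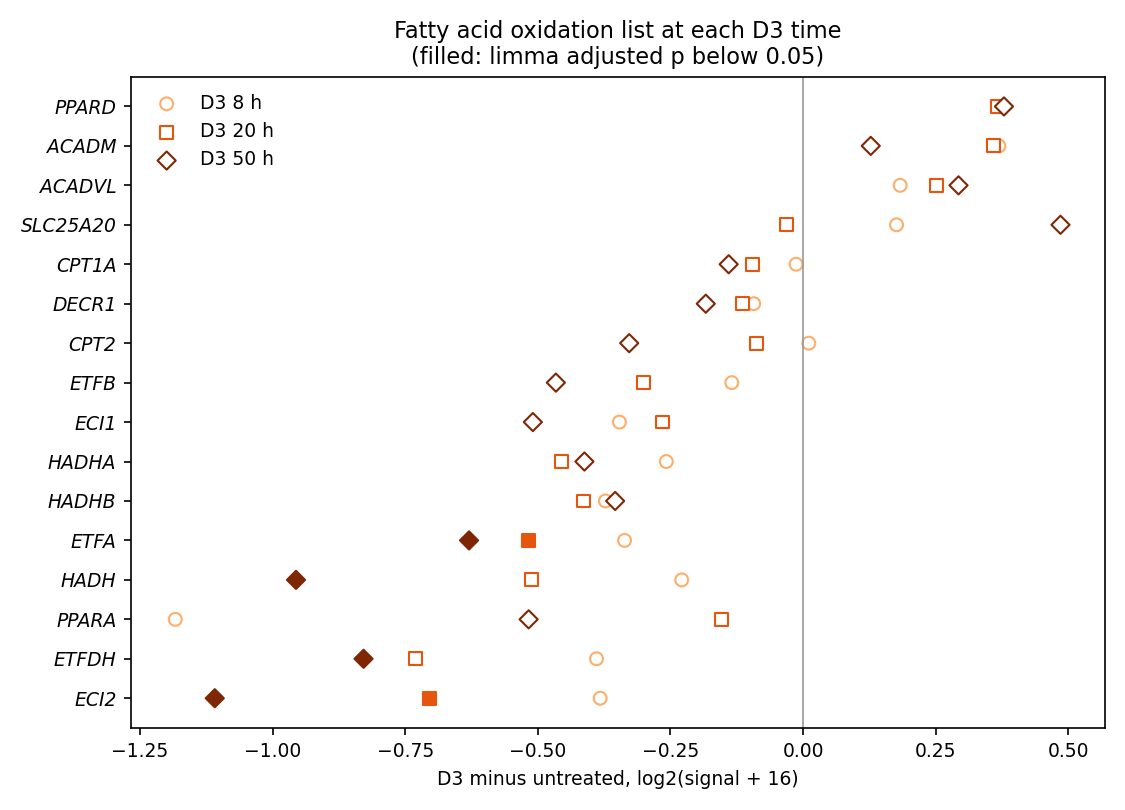
Difference D3 minus untreated in log2(signal + 16) at 8, 20 and 50 h for the 16 tested genes of fatty acid oxidation, ordered by their mean difference; filled symbols passed limma's adjusted p of 0.05. ECI2, HADH, ETFDH and ETFA are filled at 50 h, with ECI2 farthest left among them at -1.11.

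Elsewhere in the pathway D3 calls were few. In elongation and desaturation 1 of 10 rose and 1 fell over the 3 times, where 1.99% of all genes rose and 2.41% fell. At 50 h 2 rose and 1 fell, where 1.83% rose and 2.48% fell. HACD2, a dehydratase of the elongation cycle, rose by 0.40 ± 0.09 (limma adjusted p = 0.0309), by 0.48 ± 0.12 at 50 h (0.0458) and by 0.57 ± 0.11 in p53i cells (0.0431). ELOVL5, which elongates polyunsaturated fatty acids, had a difference of -0.56 ± 0.13 (0.0309) and of -0.83 ± 0.17 at 50 h (0.0197). With the mean of probe sets ELOVL5 stood at -0.16 (limma adjusted p = 0.545) and at -0.49 at 50 h (0.15). HACD2 then stood at 0.41 (limma adjusted p = 0.174) and at 0.62 at 50 h (0.127). FADS3, a desaturase relative, rose by 0.62 ± 0.15 at 50 h (limma adjusted p = 0.0452). CHPT1, which makes phosphatidylcholine, had a difference of -0.46 ± 0.12 at 50 h (0.0459), and of -0.38 with the mean of probe sets (limma adjusted p = 0.155). CRABP2, the retinoic acid carrier related to FABP5, was the tested one of its list and fell, with differences of -0.68 ± 0.15 over the 3 times (0.0262) and -0.94 ± 0.20 at 50 h (0.0226). For regulators, acetyl-CoA and NADPH supply, activation and uptake, droplet storage and sterol-regulated targets, 0 genes were called with D3 over the 3 times or at 50 h. Within p53i cells 1 gene of the supply list rose with D3, ME1, the NADPH-producing malic enzyme of the cytosol, where 0.391% of all genes rose. Its signals on the p53i arrays were 1523, 2017 and 2334 at 8, 20 and 50 h with D3, against 968 and 1137 untreated. On the LacZi arrays they were 1321, 1639 and 1495 with D3, against 1232 and 1482 untreated. The D3 arrays lay above the untreated ones in p53i cells and overlapped them in LacZi cells. How many of all genes split this way was not counted. The difference was 0.87 ± 0.13 in p53i cells (limma adjusted p = 0.0268) and 0.13 ± 0.13 in LacZi cells (0.774), and the interaction of 0.74 ± 0.19 did not pass (0.893). ME1 lost its call in 6 of 10 fits with 1 array left out, without the 2 high-ratio arrays, and with the mean of probe sets (0.39, limma adjusted p = 0.191). With 1 array left out, HACD2 lost its call over the 3 times and at 50 h in 8 of 10 fits each and in p53i cells in 9, ELOVL5 and CRABP2 in 7, and at 50 h FADS3 and CHPT1 lost theirs in 9. Without the 2 high-ratio arrays HACD2 lost all 3 of its calls. It also lost them with each array centred on its median. The limma adjusted p was then 0.0598 over the 3 times, 0.0851 at 50 h and 0.0716 in p53i cells. FADS3 lost its 50 h call with that centring (limma adjusted p = 0.11).

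For each called member the 3 genes whose log2 signals followed it most closely over the 10 arrays were read by Pearson r, as a description. The arrays share their scaling and their groups, which enter each r. A gene chosen by r therefore tends to share the member's differences, which are no separate evidence. FABP5 was closest to MPLKIP (r = 0.98), TOMM5 (0.98) and KIFBP (0.97), whose differences in p53i cells were -0.61, -0.71 and -0.69. ELOVL6 was closest to DNMT3A (r = 0.97), UEVLD (0.96) and BNIP2 (0.95). DGAT2 was closest to SPRR1B (r = 0.96), HEATR5A (0.95) and LHFPL2 (0.95). SREBF1 was closest to MICALL2, HMGXB3 and COMMD7 (r = 0.97 each), whose D3 differences were 0.55, 0.25 and 0.45.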

How the data were processed

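RNA of 10 SKBR3 samples was measured on 1-colour Affymetrix arrays. The deposited table gave 1 intensity per probe set and array, and per the submitters' processing notes the authors made these as MAS5 signals (software version: not given in the sources used here). Each array had the same trimmed mean, 200 after removal of 2% of values at each end. The arrays had thus been scaled before deposit and were not scaled again. Detection calls were not used. Low signals lie near background and are noisy, and the number of arrays limits the precision.

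Groups came from each sample's labels. One title (p53i, 8 h) spells the siRNA in another way, and the remaining labels of that sample decided its group. Addition of D3 is given as 48 h after transfection in the series text but as 24 h in the sample text. The untreated arrays are labelled biological replicates, while nothing states that D3 arrays came from separate cultures. The p-values reflect the spread among these samples alone, which may be technical.

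Gene names came from the platform annotation, in which 41097 had 1 symbol, 1801 several and 11777 none. Signals were converted to log2(signal + 16), which understates changes of dim genes. The upper 50% of probe sets by mean were kept, and the brightest per gene was tested (limma 3.58.1, R 4.3.3, by lmFit, then eBayes with an intensity trend, two-sided, Benjamini-Hochberg over all genes). Knockdown over all conditions and D3 differences were fitted additively for siRNA and D3 time (5 residual degrees of freedom), knockdown in untreated cells from 8 group means with 2, and the interaction from a siRNA-by-D3 term with 4. At each D3 time the lone array per siRNA was assumed to vary like the others. Simulated data held independent normal noise for each of 12022 genes, with no effect shared by the genes of an array. Recovery rates apply to that setting alone. Knockdown over all conditions recovered 49.5% of 200 genes changed by 0.5 and 92.5% of those changed by 1 (log2). D3 over the 3 times recovered 49.5% and 90.5%, D3 at 50 h 12.5% and 79.5%, and the interaction 0% and 48.5%.

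The members, the pathway lists and the markers were chosen with earlier results of these data known. By rule the text names all members, up to 4 called genes per list and comparison with the largest difference, PLIN2, SCAP, INSIG1, LPIN1, CPT1A and CYP24A1, and the 3 genes most like each called member. Promoter sequences are RefSeq's, each set by 1 listed transcript start. Alternatives covered scaling, offset, filter, probe sets, the variance trend, the model, the replicate number, the ACTB ratio and single arrays.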

Additional observations from a re-analysis of the deposited data

Results flagged for a closer look

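For 5 tested genes of the pathway lists, every D3 array of one siRNA lay on one side of its untreated mean and every D3 array of the other siRNA on the opposite side. The test of the difference itself, limma's interaction of siRNA and D3, did not pass for any of them. The share of all genes that meet this rule was not counted, and each untreated mean rests on 2 arrays. HACD3, a dehydratase of the elongation cycle, differed with D3 by 0.33 in p53i cells and -0.36 in LacZi cells, an interaction of 0.70 (limma adjusted p = 0.748, unadjusted p = 0.000264). Its signals were 3531 to 5382 on the p53i arrays and 3790 to 5326 on the LacZi arrays. FITM2, which helps form lipid droplets, differed by -0.37 in p53i cells and 0.35 in LacZi cells, an interaction of -0.72 (limma adjusted p = 0.893, unadjusted p = 0.0276). PLIN2 differed with D3 by 0.12 in p53i cells and -0.60 in LacZi cells, an interaction of 0.73 (limma adjusted p = 0.893). Its signals were 79.6 to 102 on the p53i arrays and 67.0 to 178 on the LacZi arrays. SCAP differed by -0.24 in p53i cells and 0.21 in LacZi cells, an interaction of -0.45 (limma adjusted p = 0.893). TECR differed by 0.11 in p53i cells and -0.07 in LacZi cells, an interaction of 0.18 (limma adjusted p = 0.943).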

How the results depend on the processing

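The direction of FABP5, DGAT2 and ELOVL6 in p53i cells and of SREBF1 with D3 was the same under all alternatives run. These were 23, but 22 for FABP5, whose dim probe set was not tested when only the upper 25% of probe sets were kept. Members called in p53i cells over all conditions were 3, and 0 with the ACTB ratio as a covariate or with 8 group means, 1 without the pair of arrays where it was highest (the high-ratio arrays), and 1 to 4 with single arrays left out. For D3 over the 3 times 1 was called, and 0 with the mean of probe sets, without the intensity trend or with 8 group means, and 0 to 1 with single arrays left out. At 50 h 1 was called, 2 with quantile normalization (SCD added), and 0 with median centring, the mean of probe sets, no intensity trend or 8 group means, and 0 to 2 with single arrays left out. In LacZi cells 0 were called for D3, and 1 with quantile normalization or without the 2 high-ratio arrays. Single arrays left out gave 0 to 1 members at 20 h and within either siRNA, and 0 elsewhere. ELOVL6 also lost its call with the mean of probe sets (-0.40, limma adjusted p = 0.0709) and no intensity trend (0.0662). Among the named pathway genes, only the calls of ECI2 over the 3 times and at 50 h held with 8 group means. Without the intensity trend only these and the call of HADH at 50 h held.

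The labels of the untreated arrays give a replicate number and no batch. The step between replicates in p53i cells correlated at 0.216 with that in LacZi cells across 12022 genes, from 2 pairs. Whether arrays of the same replicate number share a batch was not tested. With the replicate block, members called were 4 in p53i cells over all conditions, where SREBF1 was added (0.27, limma adjusted p = 0.0285), 1 for D3 at 20 h, 2 at 50 h, where SCD was added (0.45, 0.0061), 2 in untreated cells, and 1 for D3 in either siRNA. SREBF1 then stood at 0.65 with D3.

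Differences near 0 changed sign. For the siRNA these were SCD with quantile normalization (-0.00700), the ACTB covariate (-0.051) and without the 2 high-ratio arrays (-0.011), ACACA with that covariate (-0.068) and without those arrays (-0.067), and ACLY with the mean of probe sets (-0.097). For D3 these were FASN with quantile normalization (0.014) and without those arrays (0.052), ACACA and ACLY with the replicate block (0.0016 and 0.11), and ACLY without those arrays (0.069). The interaction of SREBF1 stood at 0.037 without them. With single arrays left out, the siRNA difference ran from -0.029 to 0.048 for ACACA and from -0.0090 to 0.078 for SCD, the D3 difference from -0.067 to 0.028 for FASN and from -0.087 to 0.040 for ACLY, and the interaction from -0.44 to 0.043 for SREBF1 and from -0.42 to 0.041 for ELOVL6. None of these was called, and the cause was not tested.

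Genes called varied more than members: 781 in p53i cells (51 to 1303), 529 with D3 (52 to 973), 518 at 50 h (43 to 1114), 71 at 20 h (5 to 400), 21 at 8 h (1 to 64), 16 between 8 and 50 h (0 to 74), 1 in untreated cells (0 to 561), 65 for D3 in p53i cells (1 to 575), 47 in LacZi cells (10 to 464) and 0 for the interaction (0 to 62). Median centring moved the median of all genes by 0.12 in untreated cells, -0.11 at 20 h, -0.10 at 50 h, -0.15 for D3 in p53i cells and -0.13 for the interaction. Lower calls there made up more of the total at 20 h (21 higher, 36 lower), 50 h (126 and 455) and for D3 in p53i cells (46 and 212).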
